A study of Homo sapiens with 18 samples.

Results

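The comparison asked whether the transcriptional response to VT107 was the same size in 2 pleural mesothelioma lines. It took 12 of the 18 libraries of the series, 3 in each of 4 groups, which were NCI-H226 (H226) with VT107, H226 with DMSO, parental NCI-H2052 (H2052) with VT107 and H2052 with DMSO. The study describes H226 as NF2-/- and H2052 as mutant in NF2 and LATS2, and VT107 as a small molecule that blocks palmitoylation of the TEAD proteins. All 12 cultures were human tumour cells grown in RPMI with serum, given 1 µM VT107 or the equal volume of DMSO for 24 h, and the study calls the 3 libraries of a group biological replicates. Of the 19284 gene identifiers found in both count tables, 10503 had no gene on the other strand overlapping them, and 3899 of those passed a minimum of 10 counts in at least 2 libraries of every group. Levels are given as CPM, which is the count per 1000000 of the library's scaled sum over the genes tested. For each of the 3899 genes, the VT107 response (VT107 over DMSO, log2) in H2052 was subtracted from that in H226, so a negative difference means that the gene was lower after VT107 in H226 relative to its response in H2052. Each line is 1 culture lineage with its own table, so the line, its preparation and its counting cannot be told apart.

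The Hippo pathway is a kinase relay, with MST1/2 and LATS1/2 at its core and the NF2 product Merlin upstream of it, that keeps the co-activators YAP and TAZ out of the nucleus. When the pathway is lost, as is common in mesothelioma, YAP and TAZ stay on the TEAD DNA-binding proteins and drive genes of growth, matrix and cytoskeleton. TEADs carry a lipid in a central pocket that stabilises them, and compounds such as VT107 occupy that pocket.

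Before the responses are given, 3 measured facts set how they can be read. The first is the strand, since H226 counts lie across from the annotated gene. This was seen in pairs in which an abundant gene (at least 3000 counts over the H2052 libraries) lay by at least 90% inside a gene on the other strand with at least 20 times fewer counts. In all 43 such pairs with both genes in the H226 table, the outer gene, little counted in H2052, had more H226 counts than the inner one. Across the 3899 genes the summed H226 count followed the gene's span (Spearman correlation 0.529) and hardly the summed H2052 count (0.0769), and 42 ribosomal protein genes had a median of 49 counts over the 6 H226 libraries against 89812 over the 6 H2052 libraries. Levels are therefore never compared between the lines, only responses. What produced reads on that strand was not tested, and an H226 value is a count over a gene's span rather than a measure of its mRNA. An H226 response, fall or rise is likewise a change in that count. Each difference sets such a change against a change in H2052 counts. Whether the mRNA of a gene responded differently in the lines was not tested. The second is the number of counts, summed over each line's own table. The H226 table lists only genes with a corrected p-value below 1, so these sums are not sequencing depth. The H226 libraries summed to 1568127 to 1726786 counts with VT107 and 1387223 to 1542929 with DMSO, against 12424914 to 13346712 with VT107 and 10950284 to 13418485 with DMSO in H2052, so H226 estimates carry more counting error. The last is that in H2052 the number 3 libraries of both treatments stood apart from numbers 1 and 2. Deviations from the group means correlated at 0.66, 0.55 and 0.82 between VT107 and DMSO libraries of the same number in H2052, and at 0.29, -0.003 and 0.05 in H226. H2052 libraries of numbers 1 and 2 correlated as highly across numbers (0.66 and 0.54), so these values set number 3 apart and do not tell numbers 1 and 2 from each other. Counts of calls over all genes and over each list are therefore given without a replicate block and with a block for the replicate number in H2052 alone. In the H2052 libraries the mesothelial markers VIM, KRT19 and WT1 had at least 924, 1113 and 28.2 CPM of the table, whereas CALB2 had at most 8.58 and ITLN1, MUC16 and KRT5 were at 0. The 10 leukocyte markers summed to 313 to 486 CPM with VT107 against 522 to 692 with DMSO, mostly SRGN. Over the H2052 libraries ITGB2 ranged from 9.34 to 273 CPM and CORO1A from 8.53 to 15.5, and CD48, CD53 and TYROBP were at 0. The part of these markers in any result was not tested. No leukocyte, endothelial, epithelial or fibroblast marker was among the 3899 genes.

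Responses differed in a small set of genes without the block and in a larger one with it. By edgeR's quasi-likelihood test with Benjamini-Hochberg adjustment, 8 of 3899 genes (0.205%) differed without the block, 4 with a positive difference (0.103%) and 4 with a negative one (0.103%), while 403 had an unadjusted p under 0.05. With the block in H2052, 324 genes (8.31%) differed, 150 with a positive difference (3.85%) and 174 with a negative one (4.46%), and the 8 were all among them. The 8 were FSTL1, R3HCC1, ADAMTS12 and FOSL1, lower after VT107 in H226 relative to H2052, and TOM1L2, CRLS1, TMX4 and BCO2, higher. Within H226, 320 genes (8.21%) changed with VT107 without the block, 141 up (3.62%) and 179 down (4.59%), and 925 (23.7%) with it, 458 up (11.7%) and 467 down (12%), although the block left the H226 design unchanged and acted through the spread that both lines share. Within H2052 the counts were 0 (0%) without the block, with 213 genes at an unadjusted p under 0.05, and 181 (4.64%) with it, 86 up (2.21%) and 95 down (2.44%). The H226 genes had been kept by the authors only where the corrected p-value of their H226 response was below 1. No such filter is stated for H2052. These shares therefore do not compare how widely the lines responded. The study, with its own gene set and fits, reports that VT107 strongly changed expression in both lines. The 0 calls in H2052 cover only the genes tested here, under a spread shared with H226. DESeq2 on the same libraries called 51 differences and 6 H2052 responses. Apart from the 8, every difference called for a single gene is a call of the blocked fit, and so is each fall or rise of a single gene unless the unblocked fit is named.

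Promoters are shown for FSTL1 and TOM1L2, the lower and the higher called gene of smallest p, and for 2 genes picked after their values were seen because they hold a searched motif, ADAMTS12 and F3. Each is the RefSeq window of 300 bases on GRCh38.p14, from 250 bases before to 50 after the annotated start, on the minus strand, read in the direction of the gene. Capitals mark a match to GGAATG, the core of the TEAD motif, or to TGACTCA, the AP-1 motif, each searched on both strands (as CATTCC and TGAGTCA); the 2 do not overlap here.
FSTL1, chr3:120450943-120451242, minus strand: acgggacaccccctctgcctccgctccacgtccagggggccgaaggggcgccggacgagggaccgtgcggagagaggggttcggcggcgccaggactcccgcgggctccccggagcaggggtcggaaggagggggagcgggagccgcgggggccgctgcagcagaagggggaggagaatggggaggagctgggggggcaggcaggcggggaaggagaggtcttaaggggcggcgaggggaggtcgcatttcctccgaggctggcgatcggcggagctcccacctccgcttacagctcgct
TOM1L2, chr17:17972351-17972650, minus strand: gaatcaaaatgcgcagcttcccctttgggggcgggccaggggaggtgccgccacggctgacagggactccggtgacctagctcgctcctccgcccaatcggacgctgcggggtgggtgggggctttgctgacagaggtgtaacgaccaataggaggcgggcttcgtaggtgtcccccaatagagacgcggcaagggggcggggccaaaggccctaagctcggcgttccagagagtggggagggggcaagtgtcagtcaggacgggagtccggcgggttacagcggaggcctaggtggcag
ADAMTS12, chr5:33891941-33892240, minus strand: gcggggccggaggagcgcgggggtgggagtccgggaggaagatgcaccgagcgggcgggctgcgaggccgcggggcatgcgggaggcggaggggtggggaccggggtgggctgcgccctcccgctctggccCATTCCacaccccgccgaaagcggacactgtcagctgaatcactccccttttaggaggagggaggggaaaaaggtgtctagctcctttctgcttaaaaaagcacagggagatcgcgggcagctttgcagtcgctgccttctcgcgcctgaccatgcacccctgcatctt
F3, chr1:94541710-94542009, minus strand: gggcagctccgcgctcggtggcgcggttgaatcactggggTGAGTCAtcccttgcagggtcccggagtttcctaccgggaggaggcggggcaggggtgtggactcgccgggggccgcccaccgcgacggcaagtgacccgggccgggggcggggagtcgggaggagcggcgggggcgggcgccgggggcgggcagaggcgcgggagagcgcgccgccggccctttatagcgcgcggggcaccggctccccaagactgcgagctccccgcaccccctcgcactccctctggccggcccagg
The ADAMTS12 window holds the TEAD core 119 bases before the start and the F3 window the AP-1 motif 210 bases before it. The windows of FSTL1 and TOM1L2 hold neither string, which says only that these letters are not in those 300 bases. Of all 35116 promoter windows in the table, 14% hold GGAATG and 4.95% hold TGACTCA on either strand. Of the 2854 tested genes matched to a window by symbol, 10.2% hold the TEAD core, against 11 of 126 matched genes with a negative difference (8.73%) and 11 of 106 with a positive one (10.4%) in the blocked fit. For the AP-1 motif the values are 3.19% of the matched genes, 3 of 126 (2.38%) and 3 of 106 (2.83%). These shares are a description and were not tested.

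FSTL1, which encodes a secreted follistatin-like glycoprotein and lies on hg19 chr3:120111140-120170100, had the largest negative difference of the 8. In H226 it had 42.6, 34.3 and 26.9 CPM with VT107 against 228, 229 and 224 with DMSO, from 16 to 28 raw counts per library with VT107. In H2052 it had 1208, 1161 and 1659 CPM with VT107 against 1797, 1663 and 2265 with DMSO. The treatments did not overlap in either line, and the gap was far wider in H226. The difference was -2.20 log2 (SE 0.30, adjusted p = 0.0225), from responses of -2.71 in H226 (adjusted p = 0.000133) and -0.51 in H2052 (adjusted p = 0.721). With the block the H2052 fall also passed the test (adjusted p = 0.00991) and the difference stayed at -2.19 (adjusted p = 9.65e-07).

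FOSL1 encodes FRA1, a FOS-family subunit of the AP-1 transcription factor that rises with ERK signalling, and lies on hg19 chr11:65659490-65668044. It had 57.8, 56.0 and 63.9 CPM with VT107 against 162, 166 and 178 with DMSO in H226. Its H2052 libraries had 1128, 1149 and 1127 CPM with VT107 against 1219, 1328 and 1573 with DMSO. All VT107 libraries were lower than all DMSO libraries in both lines. The difference was -1.23 (SE 0.22, adjusted p = 0.0405), and in the blocked fit the H226 response was -1.51 (adjusted p = 7.09e-07) while the H2052 response of -0.27 did not pass (adjusted p = 0.198).

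ADAMTS12, a secreted metalloprotease of the matrix on hg19 chr5:33523640-33892297, was nearly level across replicates in H226, at 147, 150.0 and 146 CPM with VT107 against 409, 387 and 435 with DMSO. The H2052 levels were 478, 531 and 667 CPM with VT107 against 571, 574 and 660.4 with DMSO, and the treatments overlapped. Its difference was -1.36 (SE 0.22, adjusted p = 0.0251). R3HCC1, on hg19 chr8:23127633-23153792, had 68.4, 99.4 and 95.8 CPM with VT107 against 298, 289.9 and 323 with DMSO in H226. In H2052 its libraries overlapped, at 31.7, 38.1 and 30.1 CPM with VT107 against 35.5, 39.0 and 34.2 with DMSO, and the difference was -1.67 (SE 0.26, adjusted p = 0.0225).

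The 4 genes with a positive difference have roles in mitochondria, endosomes and the endoplasmic reticulum. CRLS1, the mitochondrial cardiolipin synthase on hg19 chr20:5986736-6020699, had 1202, 1587 and 1366 CPM with VT107 against 646, 596 and 706 with DMSO in H226. Among the H2052 libraries it had 147, 143 and 122 CPM with VT107 against 183, 161 and 164 with DMSO, so the treatments stood in opposite order in the lines without overlap, and the difference was 1.40 (SE 0.22, adjusted p = 0.0225). The H2052 part of it did not pass the test by itself (response -0.30, adjusted p = 0.935). BCO2, a mitochondrial enzyme that cleaves carotenoids, on hg19 chr11:112046190-112095422, had 518, 489.7 and 422 CPM with VT107 against 179, 165 and 169 with DMSO in H226. In H2052 it was low and overlapping, at 11.5, 9.62 and 11.5 CPM with VT107 against 13.0, 13.5 and 8.75 with DMSO, and the difference was 1.60 (SE 0.27, adjusted p = 0.0292).

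TOM1L2, an adaptor of endosomal sorting on hg19 chr17:17750139-17875784, had 462, 445 and 466 CPM with VT107 against 203, 236 and 209 with DMSO in H226. In H2052 the order was turned round without overlap, at 24.1, 30.5 and 27.6 CPM with VT107 against 32.6, 38.4 and 39.6 with DMSO. The difference was 1.51 (SE 0.22, adjusted p = 0.0225), with an H2052 response of -0.43 that did not pass (adjusted p = 0.721). TMX4, a membrane-bound thioredoxin-related protein of the endoplasmic reticulum on hg19 chr20:7957995-8000476, had 68.4, 137 and 136 CPM with VT107 against 15.3, 19.7 and 27.5 with DMSO in H226, from 9 to 13 raw counts with DMSO. In H2052 it was level and overlapping, at 117, 99.4 and 104 CPM with VT107 against 108, 112 and 96.7 with DMSO, and its difference of 2.45 (SE 0.39, adjusted p = 0.0225) was the largest of the 8. Of the 8, only FSTL1 and ADAMTS12 have no gene on the other strand within 5000 bases. The part of such neighbours in the H226 counts of the rest was not tested. Among genes described later, TEAD3, STK4, ETV4, ERRFI1, NRG4, SCD, DLGAP5, LIG1, GINS1, NOP56, UTP18, RPS6, RPL34, RPS24, PFKP, STAT3 and CHAF1A have one. In the later GENCODE 29 annotation FSTL1, TOM1L2 and TMX4 are each overlapped by a gene on the other strand (AC063952.1, AC122129.1 and AL021396.1). Its part in the H226 counts was not tested, and the other 5 are not overlapped there. Of the genes described further on, the same limit holds for ATP8A1, GXYLT2, RP11-166D19.1, ACCN1, AXL, GLI2, EPHA4, ETV4 (DHX8), NRG1, ERRFI1, NRG4 (FBXO22), TGFBR1, ACLY, HMGCS1, ECT2, LIG1, CHAF1A (UBXN6), RPS6, HK2, FOXO1, FOXO3 and ROBO1, where a name in brackets is a protein-coding gene on the other strand. MIR137HG and UHRF1 had no entry of the same identifier there and were not looked at. Leaving out 1 library at a time without the block kept FSTL1 in 6 of 12 fits and each of the other 7 in 4 or fewer. With the block each of the 8 stayed called in every such fit that tested it. Under the block, leaving out an H2052 library also takes the information from its same-numbered partner. Both fits of a number are therefore nearly the same, here and in the later tallies of such fits.

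**Figure D1:**
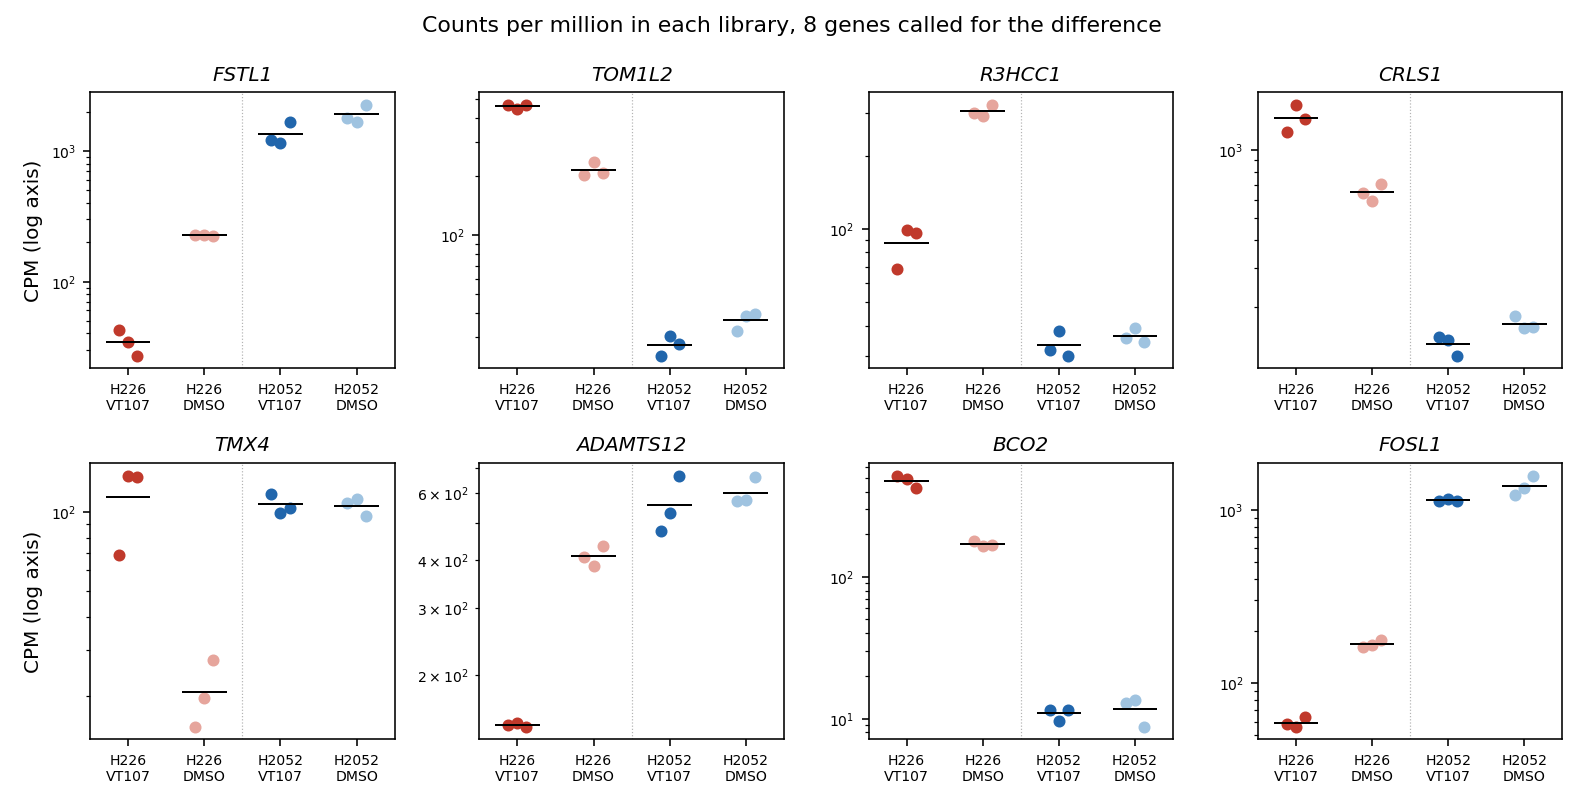
CPM (log axis) of the 8 genes called for the difference, in each library of H226 with VT107, H226 with DMSO, H2052 with VT107 and H2052 with DMSO, with a line at the mean of each 3. In H226 the VT107 and DMSO libraries are apart for all 8 genes, while in H2052 those of R3HCC1, TMX4, ADAMTS12 and BCO2 overlap; levels are not comparable between the lines.

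Across all 3899 genes the responses of the lines went together only loosely. In the blocked fit their Pearson correlation was 0.379 and their Spearman correlation 0.359, over genes, which are not independent replicates, and the 2 lines share no control library. The SD of the responses was 0.539 log2 in H226 and 0.291 in H2052. Of the 324 genes that differed, 134 with a positive and 136 with a negative difference passed the test for a response in H226 alone, and 7 and 11 in H2052 alone. Another 14 moved the same way in both lines and further in H226, 3 moved opposite ways, and 19 passed in neither line. No gene moved the same way in both lines and further in H2052. All these genes come from the set kept by the H226 p-value, so the excess of H226 calls does not compare the lines.

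**Figure D2:**
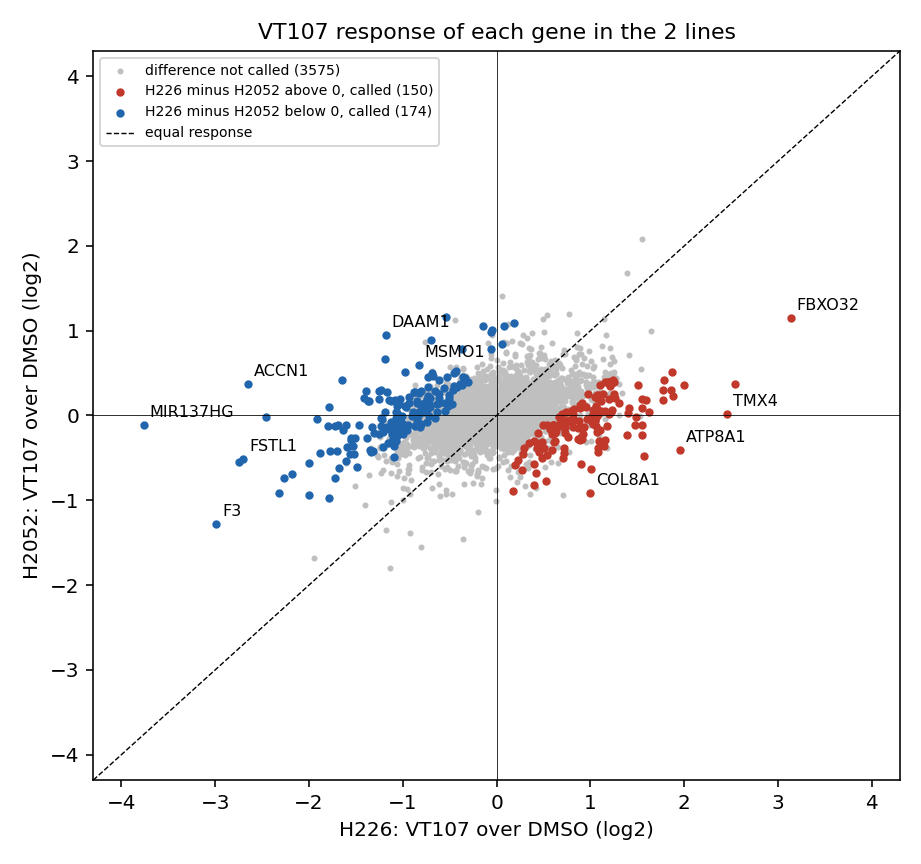
VT107 response (log2, replicate block in H2052) in H226 on the horizontal axis and in H2052 on the vertical axis, 1 point per gene for 3899 genes, with the 150 positive and 174 negative called differences coloured and a dashed line of equal response. The coloured points spread along the H226 axis, and COL8A1, DAAM1 and MSMO1 are the genes called in both lines with opposite signs.

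The 3 genes that moved opposite ways were DAAM1, MSMO1 and COL8A1. DAAM1, a formin that assembles actin downstream of Wnt signals, had 149, 145 and 131 CPM with VT107 against 303, 345 and 317 with DMSO in H226. In H2052 it had 109, 122 and 346 CPM with VT107 against 59.5, 79.5 and 138 with DMSO, higher with VT107 in all 3 same-numbered pairs although the groups overlapped, with both number 3 libraries high. With the block it fell by 1.18 log2 in H226 and rose by 0.95 in H2052, for a difference of -2.14 (SE 0.21, adjusted p = 6.73e-07), against an adjusted p of 0.153 without it. COL8A1, a short-chain collagen and a known YAP/TAZ target, had 36.5, 27.1 and 50.4 CPM with VT107 against 17.0, 30.4 and 8.46 with DMSO in H226, from 4 to 17 raw counts with DMSO, and the groups overlapped. Its H2052 libraries had 49.1, 43.3 and 77.6 CPM with VT107 against 84.4, 90.9 and 144 with DMSO, with no overlap. Its difference was 1.91 with the block (SE 0.39, adjusted p = 0.00326) and did not pass without it (adjusted p = 0.202). MSMO1, a methylsterol oxidase of cholesterol synthesis named after its values were seen, had a difference of -1.42 with the block (adjusted p = 0.000444) and an adjusted p of 0.0532 without it, from 73.0, 77.7 and 113 CPM with VT107 against 160.2, 159 and 148 with DMSO in H226, and 139, 160.3 and 158 with VT107 against 114, 99.0 and 90.8 with DMSO in H2052.

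The genes of smallest p with a negative difference in the blocked fit were, beside FSTL1, ADAMTS12 and DAAM1, PTPRF, RND3, SCARA3, ACCN1 and MIR137HG. PTPRF, the LAR receptor tyrosine phosphatase, had 353, 327 and 242 CPM with VT107 against 1002, 888 and 911 with DMSO in H226. The H2052 levels were 1364, 1373 and 871 with VT107 against 1439, 1454 and 975 with DMSO, and the difference was -1.49 (SE 0.19, adjusted p = 1.91e-05). RND3, an atypical small GTPase that loosens actin stress fibres, had 45.6, 108 and 67.2 CPM with VT107 against 242, 289.9 and 292 with DMSO in H226 and a difference of -1.88 (SE 0.25, adjusted p = 2e-05). SCARA3, a scavenger receptor-like protein, and ACCN1, an acid-sensing ion channel, had differences of -1.88 (SE 0.25) and -3.02 (SE 0.41). MIR137HG, the host transcript of miR-137, had the largest of this set at -3.65 (SE 0.47, adjusted p = 2e-05), from 27.4, 43.4 and 20.2 CPM with VT107 against 337, 421 and 467 with DMSO in H226. Its H2052 values were low and overlapping, at 7.84, 6.01 and 2.10 CPM with VT107 against 4.32, 12.3 and 1.67 with DMSO. For all of these the VT107 and DMSO libraries did not overlap in H226 and overlapped in H2052, and without the block their adjusted p ran from 0.0604 (RND3) to 0.253 (SCARA3).

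Those with a positive difference included, beside TOM1L2, CRLS1 and TMX4, the genes that follow. ATP8A1, a phospholipid flippase, had 257, 209.6 and 192 CPM with VT107 against 61.3, 64.4 and 42.3 with DMSO in H226. Among the H2052 libraries it had 36.8, 56.9 and 12.2 with VT107 against 59.1, 58.2 and 18.8 with DMSO, and the difference was 2.36 (SE 0.29, adjusted p = 1.31e-05). FAM155A, a subunit of the NALCN sodium leak channel complex, was among the most counted genes of the set in H226, with 3411, 2770.3 and 3076 CPM with VT107 against 966, 1059.5 and 985 with DMSO. Its difference was 1.58 (SE 0.20, adjusted p = 1.51e-05), and without the block the adjusted p was 0.520. GXYLT2, a xylosyltransferase that extends glucose on Notch repeats, had a difference of 1.37 (SE 0.20). The unnamed transcript RP11-166D19.1 had 1.46 (SE 0.21), and the H2052 response of all of these was between -0.41 and 0.087, none of them past the test.

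**Figure D3:**
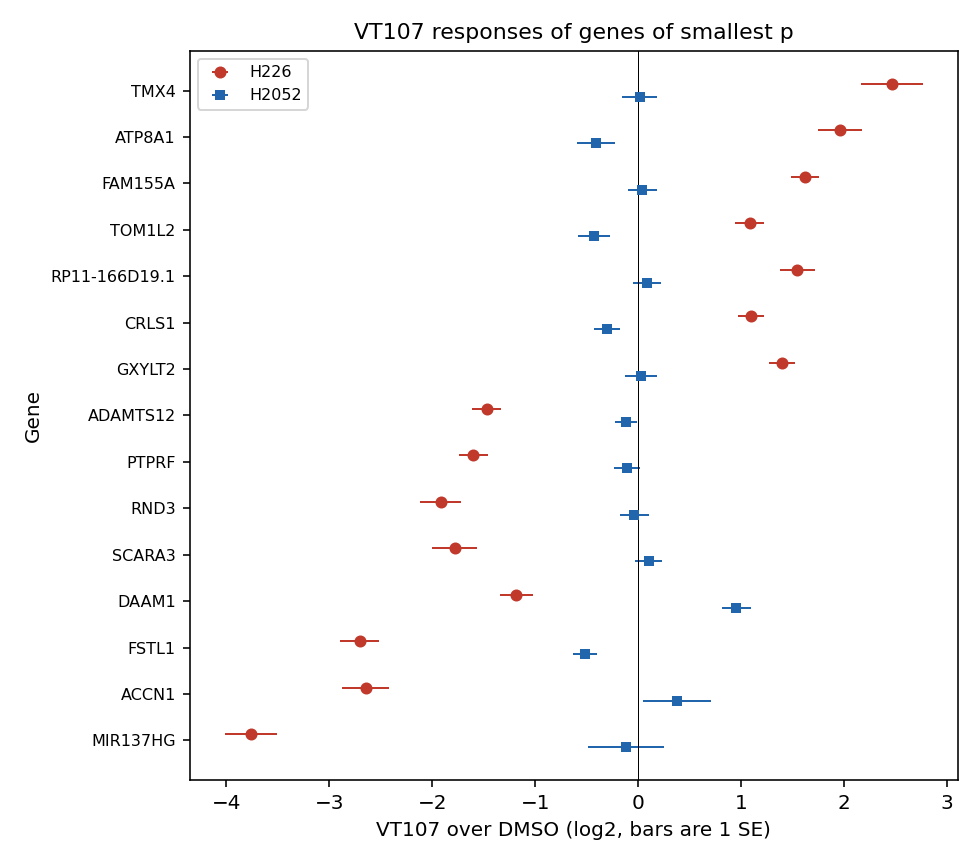
VT107 responses (log2, replicate block in H2052, bars 1 SE) in H226 (circles) and H2052 (squares) of the genes with a positive or a negative difference of smallest p that are described here. The H226 points lie beyond 1 on either side of 0, and DAAM1 is the gene among them whose H2052 response is near 1, at 0.95.

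Of 12 YAP/TAZ-TEAD targets tested, 6 were lower after VT107 in H226 relative to H2052 in the blocked fit, and CTGF, CYR61 and ANKRD1, the best known of them, were not among the tested. Of 40 listed targets in the H2052 table, 28 had an H226 row. The 6 included FSTL1, AXL, F3, GLI2 and CCDC80, 1 more had a positive difference (COL8A1), the median difference was -0.82 log2 against -0.02 over all genes, and FSTL1 alone passed without the block. Over all genes tested 4.46% had a negative and 3.85% a positive difference in the blocked fit. In H226 7 of the 12 fell and 1 rose with the block, against 12% and 11.7% of all genes, and 4 fell and none rose without it. In H2052 4 fell and none rose with the block, against 2.44% and 2.21% of all genes, and none changed without it. The same shares stand behind the counts of the other lists. F3, tissue factor, had 21.3, 25.3 and 13.4 CPM with VT107 against 198, 129 and 148 with DMSO in H226, from 8 to 14 raw counts with VT107. In H2052 it had 92.3, 103 and 39.1 CPM with VT107 against 178, 189.7 and 173 with DMSO, so the treatments were apart in both lines. It fell by 2.99 log2 in H226 and by 1.28 in H2052, and the difference was -1.71 (SE 0.38, adjusted p = 0.00617 with the block and 0.188 without). AXL, a receptor tyrosine kinase, had 36.5, 41.6 and 37.0 CPM with VT107 against 126, 113 and 133 with DMSO in H226, and 1019, 891 and 1446 with VT107 against 942, 966 and 1804 with DMSO in H2052, where the groups overlapped. Its difference was -1.58 (SE 0.23, adjusted p = 8.89e-05 with the block and 0.153 without).

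CCDC80, a secreted matrix-associated protein, and GLI2, a Hedgehog transcription factor, were named after their values were seen. CCDC80 fell in both lines, by 1.72 in H226 and 0.74 in H2052, and its difference of -0.98 (adjusted p = 0.0254) stayed called in 4 of 12 fits that left out a library (highest adjusted p = 0.111). GLI2 had a difference of -0.89 (adjusted p = 0.0112). Of a list of genes that the study names in connection with VT107, which does not hold all that it names, NPPB, IGFBP3, CTGF, CYR61, ANKRD1, FJX1 and SOCS3 had no H226 row, TEAD1, ARHGEF17, NF1, LATS2, VGLL4 and WWTR1 are overlapped on the other strand, and SNAPC1, AMOTL2 and NF2 had too few H226 counts. Of the 3 that were tested, STAT3, the JAK-activated transcription factor, had 579, 656 and 647 CPM with VT107 against 412, 431 and 340.4 with DMSO in H226, without overlap. Its H2052 libraries had 431, 411 and 858 with VT107 against 437, 472 and 939.6 with DMSO, with overlap. Its difference was 0.78 (SE 0.17, adjusted p = 0.00629 with the block and 0.604 without). KIRREL, an adhesion molecule, and WTIP, a LIM protein that inhibits Hippo kinases, had differences of 0.22 (95% interval -0.27 to 0.71) and 0.070 (-0.65 to 0.79), neither past the test.

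None of the 16 tested members of the Hippo pathway itself differed between the lines with or without the block when all libraries were used, and their median difference was 0.03. Over all genes tested 8.31% differed with the block and 0.205% without it, so 16 genes are too few to set this list apart. WWC1, the scaffold KIBRA, had the smallest p, with 4134, 3826 and 3664 CPM with VT107 against 4312, 4007 and 3592 with DMSO in H226, and 178, 166 and 189 with VT107 against 264, 231 and 336 with DMSO in H2052. It fell in H2052 (-0.63, adjusted p = 0.00710) and its difference was 0.59 (95% interval 0.20 to 0.98, adjusted p = 0.0547), which was called in 3 of 12 fits that left out a library. VGLL3, a TEAD cofactor, TEAD3 and the Hippo kinase gene STK4 had differences of 0.54, -0.57 and -0.32, with adjusted p of 0.0662, 0.552 and 0.504. TEAD4, named after its values were seen, fell in both lines, by 0.69 in H226 and 0.57 in H2052, with a difference of -0.13 (95% interval -0.59 to 0.34).

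In the ERBB and MAPK lists 1 gene each differed with the block, counts too small to set apart from the 8.31% of all genes that did. Of 5 tested ERBB receptors and ligands it was NRG1, and none differed without the block. NRG1, the ERBB3 and ERBB4 ligand neuregulin 1, had 51.7, 107 and 108 CPM with VT107 against 421, 610.3 and 742 with DMSO in H226. The H2052 levels were 69.0, 107 and 178 with VT107 against 105, 109 and 345 with DMSO, and the groups overlapped. The difference was -2.20 (SE 0.33, adjusted p = 0.00051 with the block and 0.257 without). ERRFI1, a feedback inhibitor of EGFR, rose in H226 (0.67, adjusted p = 0.00750), but its difference of 0.58 did not pass (adjusted p = 0.141), nor did those of the ligands TGFA (0.83) and NRG4 (-0.35). In H226 with DMSO, TGFA had 7 to 13 raw counts per library and NRG4 had 9 to 33. Of 6 tested ERK feedback and output genes FOSL1 differed with and without the block, while PLAUR, EPHA4 and ETV4 had differences of 0.36, -0.40 and -0.32, with adjusted p of 0.397, 0.264 and 0.734. ETV4 had 7 to 17 raw counts per H226 library with DMSO.

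The genes of TGF-beta signalling had a median difference of -0.89 over 9 tested members, of which 4 were negative and called (FSTL1, TGFBR1 and SMAD7 among them) and none positive, while FSTL1 alone was called without the block. TGFBR1, the type I receptor, had 59.3, 54.2 and 55.5 CPM with VT107 against 109, 94.8 and 101 with DMSO in H226. Among the H2052 libraries it had 129, 120.2 and 141 with VT107 against 122, 119.8 and 110.4 with DMSO, with overlap, and the difference was -0.996 (SE 0.24, adjusted p = 0.0108 with the block and 0.108 without). SMAD7, the inhibitory SMAD, passed in neither line by itself, at -0.54 in H226 (adjusted p = 0.324) and 1.16 in H2052 (adjusted p = 0.0537), and its difference of -1.69 (adjusted p = 0.0355) stayed called in 2 of 8 fits that left out a library (highest adjusted p = 0.186). SMAD7 had 7 to 21 raw counts per H226 library with VT107 and 8 to 19 per H2052 library with DMSO. TGFBR3, the co-receptor betaglycan, fell in H2052 (-0.60, adjusted p = 0.0294) and had a response of 0.15 in H226 (adjusted p = 0.654), and its difference of 0.75 did not pass (adjusted p = 0.0721). FSTL1 also stands in the list of YAP/TAZ-TEAD targets.

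Of 8 tested sterol and fatty acid genes, which SREBP transcription factors drive, 3 had a negative difference (SCD, ACLY and HMGCS1) and none a positive one with the block, with a median of -0.67, and none differed without it. SCD, the stearoyl-CoA desaturase, had 21.3, 23.5 and 28.6 CPM with VT107 against 40.9, 28.6 and 50.7 with DMSO in H226, from 13 to 24 raw counts per library, a response of -0.70 that did not pass (adjusted p = 0.0718). In H2052 it had 838, 873 and 1434 CPM with VT107 against 463, 514 and 693 with DMSO, without overlap. That was a rise of 0.89 (adjusted p = 6.41e-05), while in H226 the groups met at 28.6 CPM. The difference was -1.59 (SE 0.30, adjusted p = 0.00156 with the block and 0.153 without). HMGCS1, which makes the precursor of mevalonate, fell in H226 (-0.73, adjusted p = 0.00147) with a difference of -1.07 (adjusted p = 0.00128 with the block and 0.318 without). ACLY, the enzyme that supplies cytosolic acetyl-CoA, had a difference of -1.07 (adjusted p = 0.0139 with the block and 0.202 without), lost without H226 VT107 replicate 1 (adjusted p = 0.0507).

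Cell-cycle lists lay on the negative side. Of 17 tested mitosis genes 12 fell in H226 and 2 in H2052 with the block, 6 had a negative difference, and the median difference was -0.74. Without the block 5 fell in H226, and none fell in H2052 or differed. CENPE, a kinesin of the kinetochore, had 109, 97.6 and 89.1 CPM with VT107 against 240.2, 261 and 237 with DMSO in H226. Its H2052 libraries had 218, 223 and 111 with VT107 against 252, 241 and 217 with DMSO, with overlap and replicate 3 lowest with VT107. The difference was -0.90 (SE 0.23, adjusted p = 0.0145), called in 7 of 12 fits that left out a library (highest adjusted p = 0.0774). ECT2, a guanine nucleotide exchange factor of cytokinesis, and DLGAP5, a spindle protein, had -1.01 (adjusted p = 0.0117) and -1.17 (adjusted p = 0.0304), and DLGAP5 kept its call in 5 of 12 such fits (highest adjusted p = 0.0858). DLGAP5 had 10 to 12 raw counts per H226 library with VT107. INCENP, of the chromosomal passenger complex, fell in H226 (-1.23) with a difference of -0.86 that did not pass (adjusted p = 0.121). INCENP had 8 to 18 raw counts per H226 library with VT107. The other called members, named after their values were seen, were ASPM (-0.92), BUB1 (-0.88) and TPX2 (-0.74), which act at spindle poles, kinetochores and spindle microtubules, and BUB1 and TPX2 kept their calls in 5 and 3 of 12 such fits (highest adjusted p = 0.0983 and 0.176). Of 18 DNA replication genes 9 fell in H226 and 1 in H2052 with the block, all 18 differences were below 0 with a median of -0.48, and 2 were called, whereas without the block 4 fell in H226, and none fell in H2052 or differed. The 2 were UHRF1, which maintains DNA methylation at replication (-1.47, adjusted p = 0.0274), and CHAF1A, a histone chaperone subunit (-0.998, adjusted p = 0.0137). UHRF1 had 62.3, 10.8 and 18.5 CPM with VT107 in H226, from 41, 6 and 11 raw counts. Leaving out 1 library at a time kept UHRF1 in 7 of 10 fits (highest adjusted p = 0.0994) and CHAF1A in all but that without H226 VT107 replicate 3 (adjusted p = 0.0658). DNA ligase LIG1 (-0.82), polymerase subunit POLA2 (-0.69) and helicase component GINS1 (-0.60) fell in H226 but their differences did not pass, with adjusted p of 0.0513, 0.0575 and 0.0912. Whether proliferation differed between the cultures at 24 h was not tested.

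Of 17 tested factors that build ribosomes, 10 fell in H226 and 8 in H2052 with the block, and 2 differed, with a median difference of -0.34. Without the block 3 fell in H226, and none fell in H2052 or differed. NOP2, an rRNA methyltransferase, and NOP58, a box C/D snoRNP core protein, had differences of -0.92 (adjusted p = 0.0241) and -0.83 (adjusted p = 0.0220), and each stayed called in 5 of 12 fits that left out a library (highest adjusted p = 0.0720 and 0.0857). NOP56, the partner of NOP58, fell in both lines, by 1.26 in H226 and 0.49 in H2052, with a difference of -0.78 that did not pass (adjusted p = 0.155), and UTP18 passed in neither. NOP56 had 9 to 11 raw counts per H226 library with VT107. For the cytosolic ribosomal proteins 7 of 18 fell in H226 and none changed in H2052 with the block, 3 had a negative difference (RPS6, RPL34 and RPS24), and the median was -0.88. Without the block 1 fell in H226, and none changed in H2052 or differed. RPS6 had 53.2, 50.6 and 75.6 CPM with VT107 against 107, 113 and 165 with DMSO in H226, and 9774, 14712 and 12087 with VT107 against 9789, 9428 and 12911 with DMSO in H2052, so its difference of -1.27 (adjusted p = 0.0114) rests on 28 to 78 raw counts per H226 library. RPS24 had 16722, 36927 and 16689 CPM with VT107 in H2052, where replicate 2 was high, as it was for RPL34 (2072, 5162 and 2954) and RPS19 (12037, 20451 and 10810.0), and without that library RPS24 was not called (highest adjusted p over the fits that left out a library = 0.121, called in 5 of 12). RPS24 also lost its call without H226 VT107 replicate 1, 2 or 3 or H226 DMSO replicate 2 or 3. RPL34 was called in 7 of 12 (highest adjusted p = 0.0736) and kept its call without H2052 VT107 replicate 2. Its call was lost without H226 VT107 replicate 1 or 3 or H226 DMSO replicate 1, 2 or 3. In H226 RPL34 had 11 to 12 raw counts with VT107 and 18 to 22 with DMSO. Ribosomal protein genes have many processed pseudogenes, so how their reads were shared is uncertain.

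Positive differences were found in the FOXO, glycolysis and guidance lists with the block, and none without it. Of 6 tested members of the FOXO list 4 rose in H226 and 1 in H2052 with the block, 2 had a positive difference, and the median was 0.70. Without the block 4 rose in H226 and none in H2052. FBXO32, the ubiquitin ligase atrogin-1, had 584, 437 and 622 CPM with VT107 against 64.7, 62.6 and 59.2 with DMSO in H226. The H2052 levels were 65.7, 46.1 and 201 with VT107 against 38.5, 37.2 and 43.3 with DMSO, without overlap but with replicate 3 well above the others. It rose by 3.14 log2 in H226 and 1.15 in H2052, and the difference was 1.99 (SE 0.38, adjusted p = 0.00386 with the block and 0.282 without). INSR, the insulin receptor, had 82.1, 79.5 and 89.1 CPM with VT107 against 52.8, 37.6 and 31.7 with DMSO in H226 and a difference of 1.10 (adjusted p = 0.0212), called in 7 of 12 fits that left out a library (highest adjusted p = 0.0842). The transcription factors FOXO1 and FOXO3 rose in H226 (1.07 and 0.59) with differences of 0.88 and 0.51 that did not pass (adjusted p = 0.0656 and 0.0909).

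The 9 tested glycolysis genes split, with 2 positive and 2 negative differences and a median of 0.35. HK2, the inducible hexokinase, had 77.5, 66.9 and 63.9 CPM with VT107 against 27.3, 26.8 and 25.4 with DMSO in H226, and 130.3, 126 and 62.5 with VT107 against 118, 157 and 92.9 with DMSO in H2052, where the groups overlapped. Its difference was 1.62 (SE 0.30, adjusted p = 0.00126 with the block and 0.182 without), and that of ENO2, a neuronal-type enolase, was 1.16 (adjusted p = 0.0136). In H226 with DMSO, HK2 had 12 to 16 raw counts per library and ENO2 had 10 to 14. PFKP, a phosphofructokinase, and LDHA, lactate dehydrogenase A, had -0.95 (adjusted p = 0.0303) and -0.88 (adjusted p = 0.0482), called in 4 and 2 of 12 fits that left out a library (highest adjusted p = 0.0889 and 0.146), while ENO2 lost its call without H226 VT107 replicate 3 or H226 DMSO replicate 1 (highest adjusted p = 0.0592). Of 10 tested guidance genes 3 had a positive difference and none a negative one, with a median of 0.21. EFNA5, an ephrin ligand, had 6350.1, 4791 and 4559.8 CPM with VT107 against 3844, 3057 and 2736 with DMSO in H226, and 121, 121 and 61.2 with VT107 against 190.3, 162 and 81.7 with DMSO in H2052, where the groups overlapped. Its difference was 1.21 (SE 0.22, adjusted p = 0.00121), and the secreted semaphorin SEMA3C and the Slit receptor ROBO1 had 0.79 (adjusted p = 0.00676) and 0.78 (adjusted p = 0.0109). PLXNA2, a semaphorin receptor, rose in H226 (0.90) and its difference of 0.63 did not pass (adjusted p = 0.176). Without the block no difference was called in any of the 3 lists, while 2 glycolysis genes and 1 guidance gene rose in H226.

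**Figure D4:**
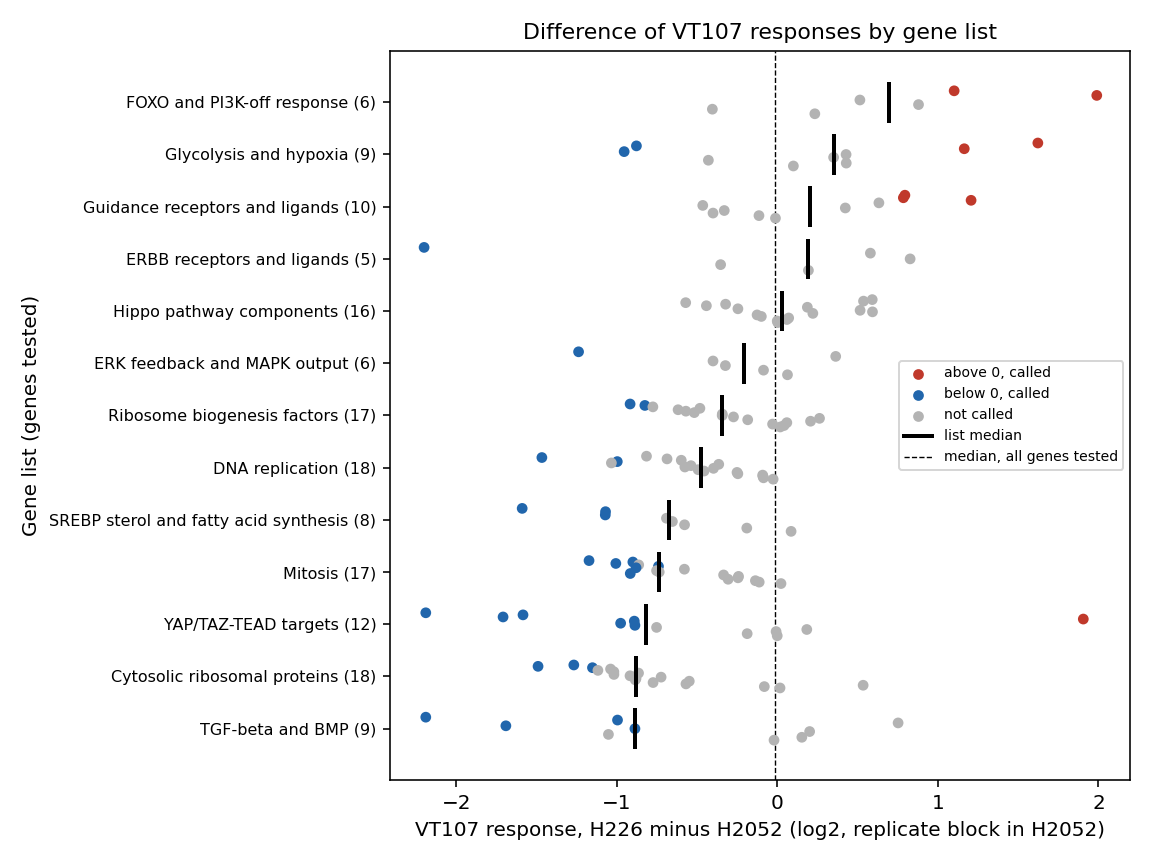
Difference of VT107 responses, H226 minus H2052 (log2, replicate block in H2052), for each tested gene of 13 of the 36 lists examined, with called genes coloured, a bar at the list median and a dashed line at the median of all genes tested. The other lists, some without a called gene, are not drawn. Among the 13, the FOXO list has the highest median, at 0.70, and the TGF-beta list the lowest, at -0.89.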

How the data were processed

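Human pleural mesothelioma lines were profiled by RNA-seq. The authors deposited raw read counts per gene in 2 tables, 1 for H226 and 1 for H2052, whose headers give gene spans and strand. The submitters' processing notes name bcl2fastq 2.20.0.422 and the hg19 build. Aligner, counter, annotation release, library kit and strand setting were not given in the sources used here. Beside the counts the H226 table holds the authors' own comparison columns (deposited log2 fold changes and p-values), which were not used, and it lists only genes whose corrected p-value is below 1. In another file 16 siRNA columns match no sample and were not used, and the 6 NF1 mutant libraries were not analysed here.

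Tables were joined by identifier. Genes overlapped by an annotated gene on the other strand were left out, and at least 10 counts were required in 2 or more libraries of each group. Counts were modelled over the 4 groups with edgeR 4.0.16 (R 4.3.3), TMM scaling and the quasi-likelihood test, and p-values were Benjamini-Hochberg adjusted over all genes tested, with 0.05 as threshold. A second fit added a block for the replicate number in H2052, where same-numbered libraries deviated together (correlations 0.66, 0.55 and 0.82), but not in H226 (0.29, -0.003 and 0.05); numbers 1 and 2 of H2052 correlated as highly with each other (0.66 and 0.54), and the labels give the numbers without saying what they share. DESeq2 1.42.0, limma 3.58.1 voom with and without quality weights, RLE scaling, other filters and gene sets, thinned H2052 counts and each library left out were alternatives. CPM are counts per 1000000 of the TMM-scaled sum over genes tested. The scripts were tested on simulated data.

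Members and gene lists were chosen with earlier results of these data known. Named genes were all those called without the block, the 8 of smallest p in each direction with the block, up to 4 of smallest p in each list described, and a list of genes that the study names for VT107, which is not complete; others are marked, and some genes the rule chose are not reported here. Promoters came from RefSeq on GRCh38.p14. Intervals are 95% intervals of the blocked fit and rest on a spread that both lines share. The block takes out the spread between H2052 replicate numbers, so the intervals do not cover it. The 3 libraries of a group share 1 culture lineage.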

Additional observations from a re-analysis of the deposited data

Results flagged for a closer look

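The VT107 response differed between H226 and H2052, by a test of the difference itself (edgeR's quasi-likelihood test, Benjamini-Hochberg adjusted over 3899 genes, no block), in 8 genes. The difference was -2.20 log2 for FSTL1, -1.67 for R3HCC1, -1.36 for ADAMTS12 and -1.23 for FOSL1, which were lower after VT107 in H226 relative to H2052. It was 1.51 for TOM1L2, 1.40 for CRLS1, 2.45 for TMX4 and 1.60 for BCO2, which were higher. Adjusted p ran from 0.0225 (FSTL1) to 0.0405 (FOSL1). The H226 responses are changes in counts on the strand across from the gene, not a measure of its mRNA. Leaving out 1 library at a time, without the block, kept FSTL1 in 6 of 12 fits and the others in fewer. Among genes with no gene on the other strand within 5000 bases, 2 differences were called without the block.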

How the results depend on the processing

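The replicate block moved the number of calls more than 1.5 times in both lines and in the difference. The GENCODE 29 gene set, scaling within each line, and every combination of the block with another choice were chosen after seeing the data. The block in H2052 alone rests on correlations seen in these same libraries, and its p-values make no allowance for that. Without a block 8 differences were called, and with it 324 (block in H2052) or 335 (block in both lines). Other tests without a block called 51 (DESeq2), 5 (limma-voom) and 255 (voom with quality weights), 301 came from leaving out both H2052 number 3 libraries, and quality weights with the block gave 381. Other gene sets and filters gave 3 (no filter), 14 (all joined genes), 2 (no gene on the other strand within 5000 bases), 4 (none in GENCODE 29) and 1 (H2052 counts thinned), and with the block 171 (GENCODE 29) and 135 (thinned). Leaving out 1 library at a time gave 0 to 75 without the block, 75 without H2052 VT107 replicate 3 and 0 without H226 VT107 replicate 3, H226 DMSO replicate 1, 2 or 3, H2052 VT107 replicate 1 or H2052 DMSO replicate 2, and 183 to 283 with the block. All of the 324 that were tested in an alternative kept their sign there.

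H226 responses numbered 320 without the block and 925 or 952 with it, 929 and 990 with quality weights, 563 over all joined genes, 178 and 513 with GENCODE 29, 664 thinned with the block, 967 without both H2052 number 3 libraries, and 102 to 509 or, with the block, 626 to 955 with 1 library left out. H2052 responses numbered 0 without the block and 181 or 195 with it, 6 by DESeq2, 25 and 248 with quality weights, 29 without both number 3 libraries, 113 and 49 with the block under GENCODE 29 and thinning, and 0 or, with the block, 37 to 205 with 1 library left out. The causes were not tested.

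Among the genes named, the differences that changed sign were near 0. NRG4 became 0.070 and 0.037 with H2052 thinned, without and with the block, and WTIP -0.015 with quality weights and the block. With 1 library left out, over fits without and with the block, KIRREL ranged between -0.027 and 0.58, WTIP between -0.11 and 0.30 and TEAD4 between -0.31 and 0.030. The lower H226 counts limit the precision, and a gene that misses the threshold is not shown to respond alike in both lines.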
